A study of Mus musculus with 12 samples.

Results

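Organic ion and drug transporters carry charged metabolites, urate, hormones and medicines across cell membranes. In the kidney they act mainly in the proximal tubule, where uptake carriers on the blood side and efflux pumps on the urine side work in series to secrete a compound, and other carriers bring urate or carnitine back. The organic anion transporters of the Slc22 family, the Slco carriers, the organic cation transporters, the proton-coupled cation exchanger Slc47a1 and the ABC pumps of the Abcb1, Abcc and Abcg2 type are the best known members of this system, and some of the ABC pumps are also known as multidrug resistance proteins.

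The 45 genes described here were the protein-coding genes with a GENCODE mouse symbol starting with Slc22a, Slco and a digit, Slc47a, Abcb1, or Abcc and a digit, or equal to Abcg2, that had at least 10 counts in 4 or more of the 12 libraries. They came from 59 protein-coding genes with such symbols, and the files held 57180 genes in all, of which 13867 protein-coding genes met the same minimum. By role they comprised 20 organic anion transporters, 7 organic cation and carnitine transporters, 10 ABC efflux pumps and 8 others. The others are orphan Slc22a genes and genes that the symbol pattern takes in although they are no drug transporters, such as Abcb10 of the mitochondrial inner membrane and Abcc9, a sulfonylurea receptor.

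The samples were kidneys of 12 male C57BL/6J mice, aged 60 days when the treatment began. The Control group (4 mice) received daily intraperitoneal injections of saline with 2% Tween 80 for 28 days, and the groups 10CBD and 20CBD (4 mice each) received cannabidiol (CBD) in the same vehicle at 10 or 20 mg/kg b.w. Cannabidiol is a non-psychoactive compound of hemp. Poly(A) RNA of each mouse was sequenced as 1 library, and 1 library is 1 mouse throughout. In whole-kidney RNA, fewer cells of a type and less RNA per cell cannot be told apart.

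The libraries held between 15417867 and 23532088 counts on genes. The kidney label was borne out by its defining genes, since all 10 proximal tubule markers were detected, with summed levels of 11730–13120 TMM-scaled CPM (counts divided by the library's scaled size) in Control, 10820–12560 in 10CBD and 9819–11680 in 20CBD. The share of counts on genes of the mitochondrial chromosome set 4 libraries apart from the other 8. It was 5.77% in Control replicate 2, 3.53% and 4.55% in 10CBD replicates 1 and 3 and 5.54% in 20CBD replicate 3, against 12.8–23.4% in the other libraries. Fold changes of members with an unadjusted p under 0.05 at a dose against Control are given with and without these 4 libraries. Without them, the 10CBD group rests on replicates 2 and 4 alone. The 45 members together took 0.541–0.735% of the counts of a library, and their summed level lay between 5714 and 6917 CPM.

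Several members are near copies of each other, and sequences of the closest pair are shown because reads that fit more than 1 place were not counted. Slc22a28 and Slc22a30, organic anion transporter genes on mouse chromosome 19 with Slc22a29 between them, have coding sequences of 1656 bases each in GENCODE vM39 on GRCm39, and 20 of these bases differ. The first 150 coding bases, in chr19:8108991-8109140 of Slc22a28 and chr19:8382120-8382269 of Slc22a30, both on the minus strand and within the first coding exon, have 0 differing bases. The window of 150 bases in which they differ most, coding bases 627 to 776, spans 2 exons in each gene (chr19:8094155-8094393 and chr19:8363810-8364048) and has 5 differing bases, which are the capitals in these lines:
Slc22a28 and Slc22a30, first coding bases: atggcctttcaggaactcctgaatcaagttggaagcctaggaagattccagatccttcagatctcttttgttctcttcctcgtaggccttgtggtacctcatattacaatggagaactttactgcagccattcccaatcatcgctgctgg
Slc22a28: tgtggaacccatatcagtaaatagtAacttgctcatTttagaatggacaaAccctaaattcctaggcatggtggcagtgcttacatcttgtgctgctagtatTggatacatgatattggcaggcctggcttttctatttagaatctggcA
Slc22a30: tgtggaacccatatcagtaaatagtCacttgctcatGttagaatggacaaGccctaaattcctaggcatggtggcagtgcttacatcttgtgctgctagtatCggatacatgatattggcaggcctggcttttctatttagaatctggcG

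Slco1a1 and Slco1a6, 2 organic anion carriers on chromosome 6 with Slco1a8 between them, are shown as a less similar pair, since 323 of their 2010 coding bases differ. Their first 150 coding bases, from 2 exons on the minus strand (chr6:141889161-141892364 and chr6:142103013-142106785), have 32 differing bases, again in capitals:
Slco1a1: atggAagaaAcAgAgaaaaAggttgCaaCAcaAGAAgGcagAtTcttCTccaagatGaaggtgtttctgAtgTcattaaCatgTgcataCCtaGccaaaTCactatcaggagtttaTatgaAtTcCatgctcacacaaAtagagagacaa
Slco1a6: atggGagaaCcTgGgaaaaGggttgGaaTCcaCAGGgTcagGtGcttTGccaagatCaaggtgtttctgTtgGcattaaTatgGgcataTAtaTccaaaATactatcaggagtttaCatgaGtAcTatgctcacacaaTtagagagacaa

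Over whole canonical transcripts, 32.7% of the 100-base windows of Slc22a28 occur unchanged in Slc22a30, and 34.7% of those of Slc22a13 occur in Slc22a13b. Levels of these 4 genes are therefore uncertain. The share was 13.2% for Slc22a5 in Slc22a21, 7.41% for Abcb1a in Abcb1b and 0 for Slco1a1 in Slco1a6. Read pairs can reach beyond such a window, so these shares are not shares of reads lost.

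Levels of different genes were compared as mean CPM per kilobase of canonical transcript (CPM per kb) in the Control mice. The urate reabsorption carrier Slc22a12 was the most abundant member at 459 ± 70.3 CPM per kb (SD, n = 4), and its 4 values lay above all 4 values of the next gene. Among those that came next were Slc22a18, an orphan carrier, at 250.3 ± 41.3, the cation exchanger Slc47a1 of the urine side at 181 ± 13.1 and the cation uptake carrier Slc22a2 at 175 ± 14.2 CPM per kb. The organic anion uptake carriers of the blood side, Slc22a6 and Slc22a8, had 162 ± 30.9 and 145 ± 32.7 CPM per kb. The 4 values of Slc22a18 lay above those of Slc47a1, Slc22a2, Slc22a6 and Slc22a8. From Slc47a1 to Slc22a8 the ranges of neighbours in this order overlapped, so their order is not resolved by 4 mice.

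The range of Slc22a8 lay above that of the next gene, Slc22a7, another organic anion carrier, at 76.3 ± 26.1 CPM per kb. The efflux pump Abcg2 (74.8 ± 5.24), the anion carrier Slco1a6 (62.0 ± 6.80) and the efflux pump Abcc2 (58.5 ± 7.40) came next, again with overlapping ranges. Slco1a1 (42.4 ± 5.35) and the carnitine carrier Slc22a5 (42.2 ± 9.52) completed the members above 40 CPM per kb. At the other end, 9 members had Control means under 1 CPM per kb, among them the cation carrier Slc22a3 at 0.386 ± 0.147 and the efflux pump Abcc3 at 0.522 ± 0.217. With the length of all exons of a gene in place of its canonical transcript, 9 of the 10 most abundant members remained among the first 10, and Abcc2 took the place of Abcg2.

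**Figure D1:**
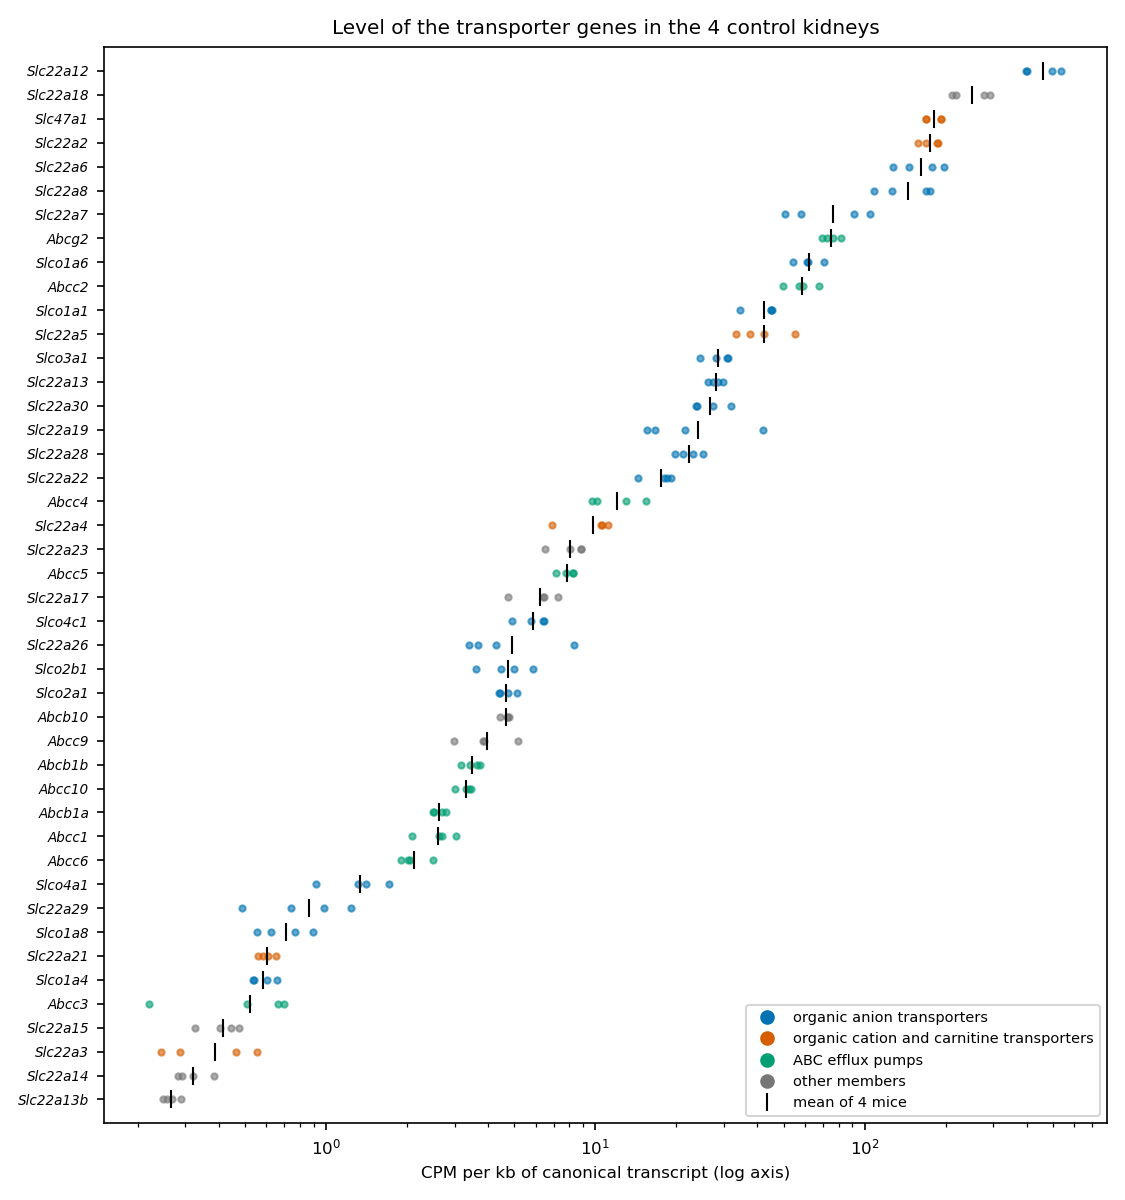
Each point is the level of a member in 1 of the 4 Control kidneys, in CPM per kb of canonical transcript on a log axis, with the mean as a black bar and the role as a colour. Slc22a12 stands above all others, and the members span from 0.265 (Slc22a13b) to 459 CPM per kb (means).

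The 14 protein-coding genes of these symbols below the minimum had between 1 and 77 counts in total over the 12 libraries. The highest of these were Slc47a2, the second cation exchanger of this type, with 77 counts and Slc22a27 with 54 counts. The liver carriers Slco1b2 (24 counts) and Abcb11, the bile salt export pump (11 counts), were among them.

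Each dose was compared with Control to ask which transporter genes changed after 28 days of CBD. None of the 45 members passed the edgeR quasi-likelihood test at an adjusted p under 0.1 at 10 mg/kg b.w., where 5 of all 17163 genes tested (0.0291%) did. None passed it at 20 mg/kg b.w. either, where 52 genes (0.303%) did. At an unadjusted p under 0.05 there were 6 members at 10 mg/kg b.w. (13.3%), against 5.67% of all genes. Of these 2 were above Control and 4 below, beside 3.33% and 2.34% of all genes. At 20 mg/kg b.w. there were 4 members (8.89%), against 8.45% of all genes, and 1 was above Control and 3 below, beside 4.92% and 3.53% of all genes. DESeq2 called 1 member at 10 mg/kg b.w. (Slc22a23; 0.233% of all genes) and 2 at 20 mg/kg b.w. (Slc22a23 and Slc22a28; 1.06% of all genes). With limma-voom 0 members were called at both doses.

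Over the 45 members, the median log2 fold change was -0.02 at 10 mg/kg b.w. and -0.04 at 20 mg/kg b.w., beside 0.01 at both doses over all genes tested. Single members ranged from -0.76 to 0.71 at 10 mg/kg b.w. and from -0.56 to 0.60 at 20 mg/kg b.w.. By role, the medians at the 2 doses, in log2, were 0.07 and -0.01 for the 20 organic anion transporters, -0.09 and -0.07 for the 7 cation and carnitine transporters and -0.04 and -0.12 for the 10 efflux pumps. At 20 mg/kg b.w., 9 of the 10 efflux pumps had a fitted value below 0, but the lowest was -0.33 and none reached an unadjusted p under 0.05. The doses share the same 4 Control mice.

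**Figure D2:**
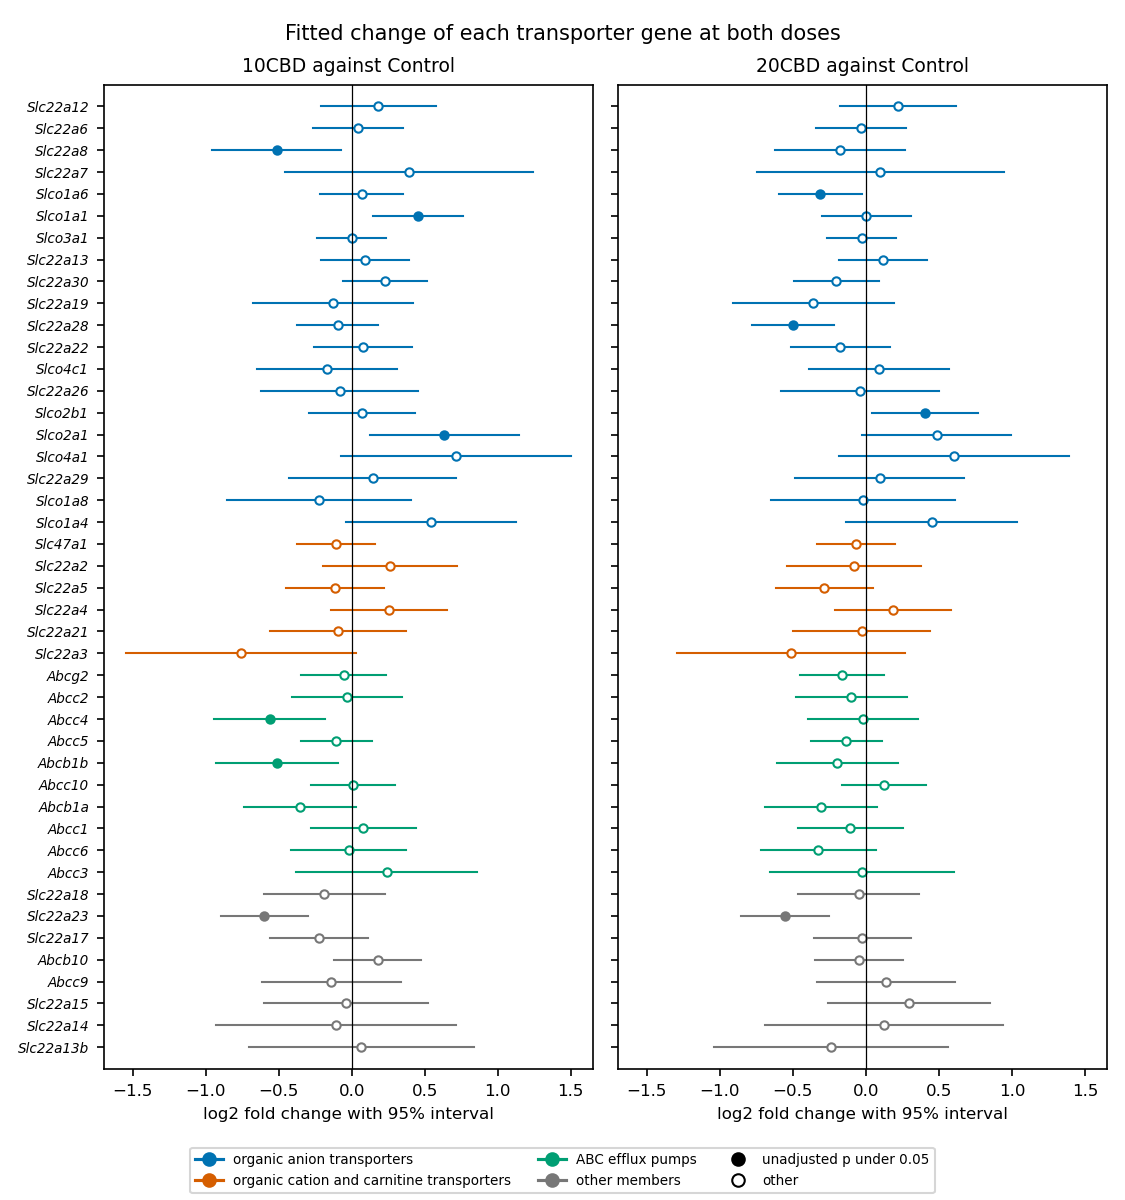
Points are fitted log2 fold changes against Control for the members at 10 mg/kg b.w. (left) and 20 mg/kg b.w. (right), lines are 95% intervals, colours are roles, and filled points have an unadjusted p under 0.05. Most intervals span 0; 6 points are filled on the left and 4 on the right, and Slc22a23 is the gene filled on both sides.

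Slc22a23, an orphan member of the Slc22 family on chr13:34363141-34529657, had the smallest p of all members at both doses. It was measured at 59.8, 43.8, 54.4 and 59.8 CPM in the Control mice, at 33.6, 36.3, 37.2 and 36.8 CPM in 10CBD and at 39.8, 44.8, 29.3 and 34.3 CPM in 20CBD. All 4 mice of 10CBD lay below all 4 Control mice, and so did 3 of 4 mice of 20CBD, while 20CBD replicate 2 was just above Control replicate 2. The log2 fold change at 10 mg/kg b.w. was -0.60 (SE 0.141, 95% interval -0.90 to -0.30, unadjusted p = 0.0007034, adjusted p = 0.5341 in edgeR). At 20 mg/kg b.w. it was -0.56 (SE 0.141, 95% interval -0.86 to -0.26, unadjusted p = 0.001292, adjusted p = 0.2263 in edgeR). Without the 4 libraries of low mitochondrial share the values were -0.67 and -0.55. In that fit, chosen after seeing the data, edgeR called Slc22a23 at both doses (adjusted p = 0.08739 and 0.06018). With the mitochondrial share as a covariate edgeR called it at 20 mg/kg b.w. (-0.65, adjusted p = 0.00537), but called 0 members at 10 mg/kg b.w.

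The contrast of the mean of both doses with Control had the most mice, and edgeR called 0 of 45 members in it, beside 24 of all genes tested (0.140%). At an unadjusted p under 0.05 it had 4 members (8.89%), against 7.04% of all genes. Slc22a23 came nearest to the threshold, with a log2 fold change of -0.58 (SE 0.119) and an adjusted p of 0.1239 in edgeR, and with an exact permutation p of 0.00404 (two-sided, 495 arrangements, unadjusted). DESeq2 called it there at an adjusted p of 0.00451, as 1 member beside 0.792% of all genes, while limma-voom called 0 members. Without the 4 libraries of low mitochondrial share its log2 fold change was -0.61 with an adjusted p of 0.02175 in edgeR. With the mitochondrial share as a covariate the log2 fold change was -0.59 with an adjusted p of 0.003127 in edgeR. With 1 library left out, the adjusted p of Slc22a23 in edgeR ran from 0.0771 to 0.495 over 12 fits. It was under 0.1 in 2 of them, without Control replicate 2 (0.0988) and without 20CBD replicate 2 (0.0771). With a replicate block it was 0.23.

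Among the organic anion transporters, the uptake carriers Slc22a6 and Slc22a8 are the main entry route for anionic drugs from blood. Slc22a6 (chr19:8595356-8605663) was measured at 591, 512, 791 and 715 CPM in Control, at 679, 684, 705 and 618 CPM in 10CBD and at 671, 676, 549 and 651 CPM in 20CBD. Every treated mouse lay within the range of the Control mice. The 95% interval of its log2 fold change was -0.27 to 0.35 at 10 mg/kg b.w. and -0.34 to 0.28 at 20 mg/kg b.w.

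Slc22a8 (chr19:8568476-8589541) was measured at 490, 419, 682 and 654 CPM in Control, at 291, 489, 397 and 394 CPM in 10CBD and at 509, 642, 350 and 484 CPM in 20CBD. Of the mice of 10CBD, 3 lay below the lowest Control mouse and replicate 2 lay among the Control mice. The log2 fold change at 10 mg/kg b.w. was -0.52 (SE 0.208, unadjusted p = 0.02576, adjusted p = 0.8118 in edgeR), and without the 4 libraries of low mitochondrial share it was -0.47.

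Slc22a12, which brings urate back from the filtrate, was measured at 1109, 894, 1198 and 886 CPM in Control. It had 1280, 994, 1398 and 966 CPM in 10CBD and 856, 1266, 1481 and 1152 CPM in 20CBD. The groups overlapped, and the 95% intervals of the log2 fold change were -0.21 to 0.58 and -0.18 to 0.61.

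The carriers Slco1a1 (chr6:141853007-141892690) and Slco1a6 (chr6:142031487-142154247), the pair whose coding starts are shown above, transport steroid conjugates and other anions. Slco1a1 was measured at 177.5, 136.5, 179 and 180.4 CPM in Control, at 229, 274.5, 213 and 206 CPM in 10CBD and at 194, 159, 138 and 183 CPM in 20CBD. All 4 mice of 10CBD lay above all Control mice and above all mice of 20CBD, while 20CBD and Control overlapped. At 10 mg/kg b.w. the log2 fold change was 0.45 (SE 0.144, unadjusted p = 0.006584, adjusted p = 0.7955 in edgeR), and without the 4 libraries of low mitochondrial share it was 0.42.

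Slco1a6 was measured at 172, 152, 174 and 199 CPM in Control, at 209, 178, 176 and 168 CPM in 10CBD and at 159, 130, 117 and 156 CPM in 20CBD. Its 20CBD mice lay below all mice of 10CBD and overlapped with Control. Its log2 fold change at 20 mg/kg b.w. was -0.31 (SE 0.132, unadjusted p = 0.0325, adjusted p = 0.5363 in edgeR), and -0.29 without the 4 libraries of low mitochondrial share.

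Slc22a28 (chr19:8039327-8109346) was measured at 47.5, 44.5, 56.6 and 51.9 CPM in Control, at 51.4, 47.2, 42.6 and 46.2 CPM in 10CBD and at 38.9, 30.1, 30.9 and 41.8 CPM in 20CBD. The mice of 20CBD all lay below every Control mouse and every mouse of 10CBD. Its log2 fold change at 20 mg/kg b.w. was -0.50 (SE 0.131, 95% interval -0.78 to -0.22, unadjusted p = 0.001728, adjusted p = 0.2696 in edgeR), and DESeq2 called it at an adjusted p of 0.05525. Without the 4 libraries of low mitochondrial share the value was -0.49. With the mitochondrial share as a covariate edgeR called Slc22a28 at 20 mg/kg b.w. (-0.52, adjusted p = 0.02874). Its near copy Slc22a30 (chr19:8312731-8382475), named after its values were seen, was measured at 53.8, 53.6, 72.3 and 61.8 CPM in Control, at 69.4, 82.9, 65.1 and 65.3 CPM in 10CBD and at 57.5, 48.0, 45.3 and 58.9 CPM in 20CBD. For Slc22a30 the mice of 20CBD lay below all mice of 10CBD but overlapped with Control. Read pairs that lie wholly in stretches shared by both genes cannot be placed, so each value rests on pairs that reach a differing base.

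Slco2a1 (chr9:102865911-102973201), the prostaglandin transporter, was measured at 31.4, 36.4, 31.5 and 33.7 CPM in Control, at 78.6, 33.6, 58.6 and 35.2 CPM in 10CBD and at 34.1, 46.2, 61.2 and 44.3 CPM in 20CBD. The 3 highest values were those of 10CBD replicates 1 and 3 and 20CBD replicate 3, which are the treated libraries of low mitochondrial share. The log2 fold change at 10 mg/kg b.w. was 0.63 (SE 0.239, unadjusted p = 0.01785, adjusted p = 0.8118 in edgeR), and without the 4 libraries it was 0.09. At 20 mg/kg b.w. it was 0.48 (SE 0.239, unadjusted p = 0.06141, adjusted p = 0.6187 in edgeR). In the mean of both doses it was 0.56, and 0.23 without the 4 libraries. With the mitochondrial share as a covariate edgeR called Slco2a1 at 20 mg/kg b.w. (0.63, adjusted p = 0.03513) and in the mean of both doses (0.53, adjusted p = 0.07584), but not at 10 mg/kg b.w. (0.44, adjusted p = 0.5725).

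Slco2b1 (chr7:99306783-99360547), a carrier of steroid sulfates, was measured at 30.3, 18.7, 23.1 and 25.9 CPM in Control, at 24.9, 28.0, 23.0 and 26.9 CPM in 10CBD and at 27.3, 43.7, 30.3 and 28.4 CPM in 20CBD. The 20CBD mice lay above 3 of the 4 Control mice, and 2 of them lay below Control replicate 1. In 20CBD the log2 fold change was 0.40 (SE 0.171, unadjusted p = 0.03175, adjusted p = 0.5339 in edgeR), and 0.32 without the 4 libraries. The remaining 11 organic anion transporters, which include the urate and nicotinate carrier Slc22a13 and the kidney carrier Slco4c1, had no unadjusted p under 0.05 at either dose.

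**Figure D3:**
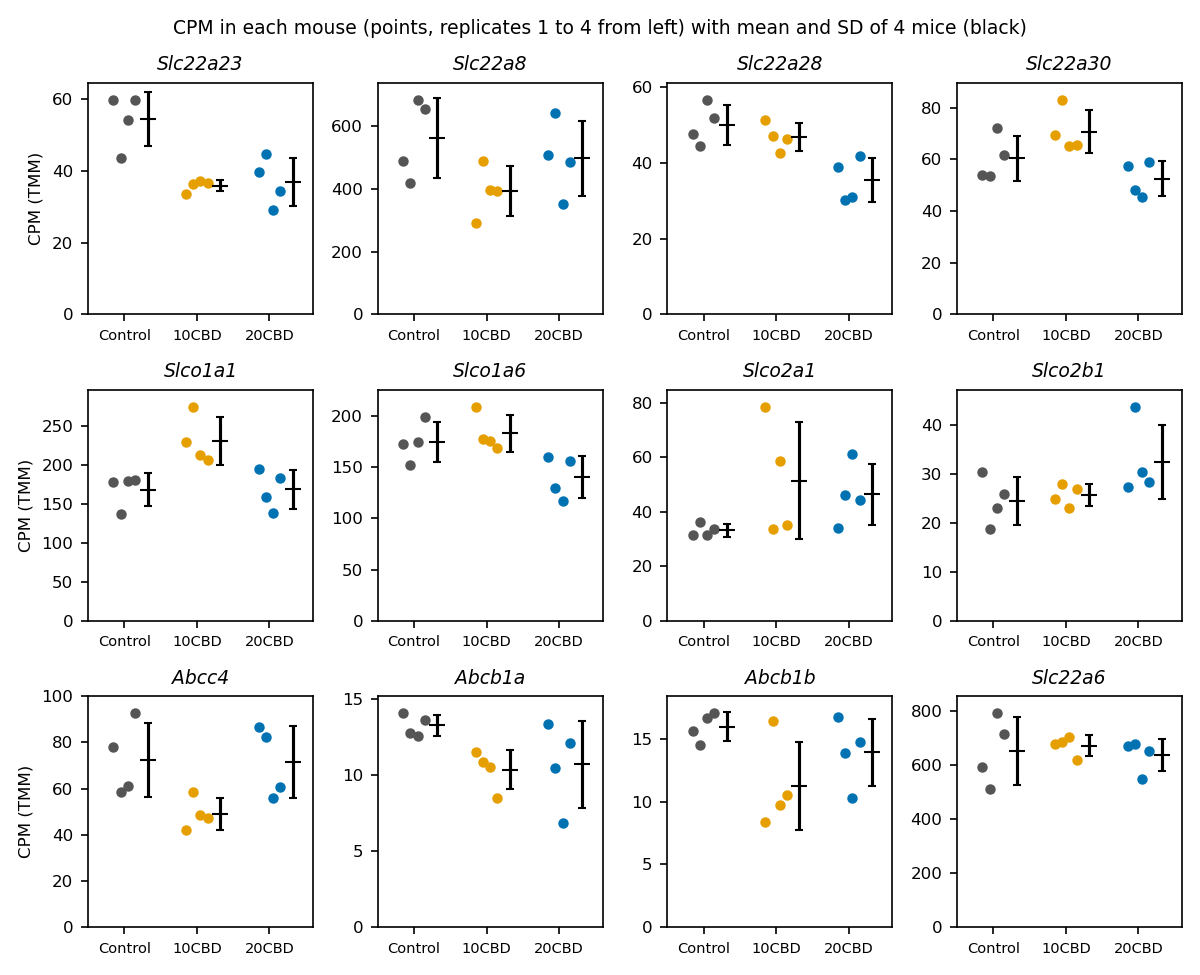
Points are the CPM of each mouse (replicates 1 to 4 from left) for 12 transporter genes, with the mean and SD of the 4 mice in black beside each group; each vertical axis starts at 0. The 10CBD mice are all below Control for Slc22a23 and Abcb1a and all above for Slco1a1, the 20CBD mice are all below Control for Slc22a28, and the Slc22a6 groups overlap.

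None of the 7 organic cation and carnitine transporters had an unadjusted p under 0.05 at either dose. Slc47a1, which passes organic cations into urine, was measured at 451.5, 511, 513 and 451.6 CPM in Control, at 373, 465, 505 and 449 CPM in 10CBD and at 459.8, 441, 506 and 432.5 CPM in 20CBD. The 3 groups overlapped. Slc22a2 was measured at 369.8, 407, 411 and 345 CPM in Control, at 667, 349, 501 and 319 CPM in 10CBD and at 295.5, 304, 477 and 371 CPM in 20CBD, with overlapping groups and the 3 highest values in the treated libraries of low mitochondrial share. The carnitine carrier Slc22a5 lay between 88.9 and 176 CPM over the 12 mice, and the ergothioneine carrier Slc22a4 between 20.8 and 39.5 CPM.

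Of the ABC efflux pumps, Abcg2 and Abcc2 pass drugs and conjugates into urine. Abcg2 was measured at 411, 373, 439 and 390.5 CPM in Control, at 395, 417, 371 and 369 CPM in 10CBD and at 432, 307.5, 303 and 396 CPM in 20CBD, and its groups overlapped. Abcc2 lay between 331 and 587 CPM over the 12 mice.

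Abcc4 (chr14:118720103-118943924), a pump for cyclic nucleotides, urate and anionic drugs, was measured at 77.8, 58.5, 60.9 and 92.6 CPM in Control, at 42.1, 58.6, 48.8 and 47.1 CPM in 10CBD and at 86.8, 82.3, 55.9 and 60.8 CPM in 20CBD. In 10CBD, 3 mice lay below every Control mouse, and replicate 2 lay level with Control replicate 2. The log2 fold change at 10 mg/kg b.w. was -0.56 (SE 0.178, unadjusted p = 0.006628, adjusted p = 0.7955 in edgeR), and without the 4 libraries of low mitochondrial share it was -0.55.

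Abcb1a (chr5:8710022-8798575) and Abcb1b (chr5:8847994-8916389) encode the 2 mouse forms of P-glycoprotein, the pump known for multidrug resistance. Abcb1a was measured at 14.1, 12.7, 12.6 and 13.7 CPM in Control, at 11.5, 10.9, 10.5 and 8.51 CPM in 10CBD and at 13.4, 10.5, 6.84 and 12.1 CPM in 20CBD. The mice of 10CBD all lay below the Control mice, with an exact permutation p of 0.02857 (two-sided), the smallest that 4 mice against 4 allow, and an unadjusted edgeR p of 0.06622. Abcb1b was measured at 15.6, 14.5, 16.7 and 17.0 CPM in Control, at 8.35, 16.4, 9.71 and 10.5 CPM in 10CBD and at 16.7, 13.9, 10.3 and 14.7 CPM in 20CBD. Its replicate 2 of 10CBD lay among the Control mice and the other 3 below them. The log2 fold change of Abcb1b at 10 mg/kg b.w. was -0.51 (SE 0.196, unadjusted p = 0.01935, adjusted p = 0.8118 in edgeR), and without the 4 libraries of low mitochondrial share it was -0.30.

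Groups that do not overlap were counted over all genes for reference. At 10 mg/kg b.w. 3 members did not overlap with Control (Slc22a23, Abcb1a and Slco1a1), which is 6.67% beside 3.19% of all genes tested. At 20 mg/kg b.w. it was 1 member (Slc22a28), which is 2.22% beside 5.30% of all genes.

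When the higher dose was compared with the lower dose, edgeR called 0 members and 0 of all genes tested (0.00%), DESeq2 called 0 members and 12 genes (0.0699%), and limma-voom called 0 of either. At an unadjusted p under 0.05 there were 5 members (11.1%), against 6.31% of all genes. Of these 4 were lower in 20CBD and 1 was higher, beside 2.84% and 3.47% of all genes. The 4 were Slc22a30 (log2 fold change -0.43), Slco1a1 (-0.45), Slc22a28 (-0.40) and Slco1a6 (-0.38), all organic anion transporters, and each had all mice of 20CBD below all mice of 10CBD. Without the 4 libraries of low mitochondrial share the value of Slco1a6 was -0.22, and the others were -0.43 (Slc22a30), -0.42 (Slco1a1) and -0.33 (Slc22a28). All mice of 20CBD lay below all mice of 10CBD for 8.89% of the members and 1.40% of all genes tested. This direction was chosen after the values were seen, and no share for both directions is given. Slc22a28 and Slc22a30 share much of their sequence, and their values may not be independent, which was not tested. Abcc4 was the gene higher in 20CBD, at 0.54 in log2. The adjusted p was 0.7583 for all 5 in edgeR. With the mitochondrial share as a covariate edgeR called 1 member, Slco1a1 (-0.57, adjusted p = 0.09769), beside 62 of all genes tested.

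The summed level of the 10 proximal tubule markers did not overlap between 20CBD (9819–11680 CPM) and Control (11730–13120 CPM). Abundant markers weigh most in this sum. Among these, Lrp2 was at 1035–1630 CPM in 20CBD and 1891–2649 in Control, while Slc27a2 overlapped (3975–5291 and 4070–5112 CPM). Of the 10 markers, 1 passed the edgeR test at 20 mg/kg b.w. (the glucose carrier Slc5a2, which fell, adjusted p = 0.082), 8 had a fitted value below 0, and the median log2 fold change was -0.23. At 10 mg/kg b.w. 0 of the 10 passed the edgeR test and 0 had an unadjusted p under 0.05, but 9 had a fitted value below 0, with a median of -0.17 and overlapping sums. The part of these markers in the transporter values at either dose was not tested. The 6 adipocyte markers had sums of 29.6–117 CPM in Control, 17.4–56.9 in 10CBD and 10.1–29.8 in 20CBD, none of them at 0 in all libraries. Of these markers 5 were tested, and all 5 had a fitted value below 0 at both doses. Their median log2 fold change was -1.68 at 10 mg/kg b.w. and -3.02 at 20 mg/kg b.w. In edgeR 0 passed at 10 mg/kg b.w. and 1 at 20 mg/kg b.w. (Car3, adjusted p = 0.05158). The part of the adipocyte markers in the transporter values was not tested either.

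The 4 libraries of low mitochondrial share did not overlap with the other 8 for 2 members in each direction (4.44%), a smaller share than among all genes tested (6.29% for higher and 6.65% for lower levels). Slc22a7 was measured at 189.8, 218, 121 and 105 CPM in Control, at 332, 119, 242 and 140 CPM in 10CBD and at 75.8, 135, 324 and 144 CPM in 20CBD. The 4 libraries lay above all the other 8, at 218–332 against 75.8–189.8 CPM.

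In the other direction, Abcc2 had 331–431.5 CPM in the 4 libraries against 443–587 CPM in the other 8, and Abcc9 had 18.8–24.2 against 28.6–38.7 CPM. Markers of the S3 segment, the last stretch of the proximal tubule, were also compared. The summed level of the 4 markers was 2035, 3332, 3143 and 2645 CPM in these libraries (Control replicate 2, 10CBD replicates 1 and 3, 20CBD replicate 3) and 1661–2379 CPM in the other 8, so that the 3 treated libraries lay above all others and Control replicate 2 lay among them. The sum was carried by 1 marker, Slc7a13, at 1002, 2302, 2029 and 1854 CPM in the 4 libraries against 674.9–1156 CPM in the other 8, while Slc5a1, Cyp7b1 and Atp11a overlapped, with Atp11a at 606–942 against 795–1321 CPM. None of the 4 markers was at 0 in all libraries, and their part in these values was not tested. Slc22a18 was measured at 325, 450, 335 and 426 CPM in Control, at 336, 319, 379.7 and 313 CPM in 10CBD and at 297.5, 278, 547 and 361 CPM in 20CBD, with its 2 highest values in Control replicate 2 and 20CBD replicate 3.

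**Figure D4:**
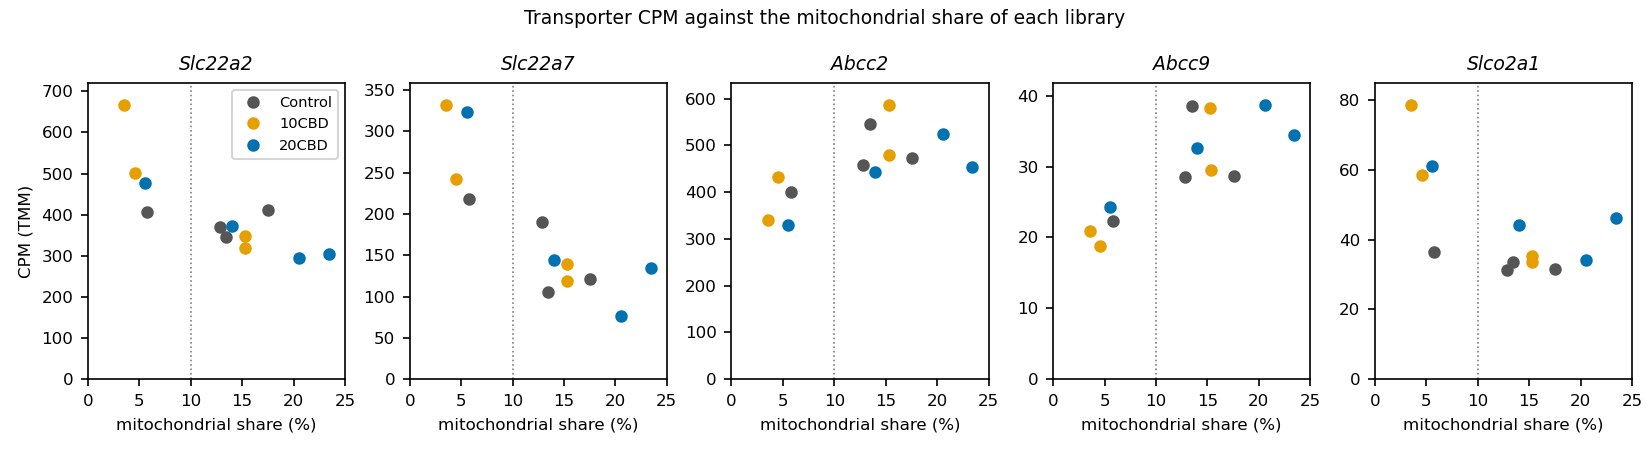
Each point is 1 library, with the share of its counts on mitochondrial genes on the horizontal axis (percent, dotted line at 10%) and the CPM of a transporter gene on the vertical axis, coloured by group. Left of the line, the 4 libraries of low share hold the highest values of Slc22a7 (218–332 CPM) and the lowest of Abcc2 and Abcc9.

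Genes around this system were described from lists of non-members. Of 24 other drug and metabolite transporters 19 were tested, and edgeR called 0 at either dose, as the lowest adjusted p was 0.8701 at 10 mg/kg b.w. and 0.3423 at 20 mg/kg b.w. At an unadjusted p under 0.05 there were 0 of the 19 at 10 mg/kg b.w., against 5.67% of all genes. At 20 mg/kg b.w. there were 3 of the 19, all below Control, against 8.45% of all genes and 3.53% below Control. They were the bile acid carrier Slc10a2 (71.5 ± 5.75 CPM in Control and 49.8 ± 16.5 CPM in 20CBD, SD, n = 4), the lactate carrier Slc16a1 (136 ± 32.9 and 83.0 ± 13.9 CPM) and the sulfate carrier Slc26a1 (125 ± 27.2 and 89.6 ± 22.7 CPM).

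Of 22 regulators and scaffolds of transporters 21 were tested. This list was chosen with earlier results known. At 10 mg/kg b.w. edgeR called 1 higher and 1 lower (0.0291% of all genes), and at 20 mg/kg b.w. 1 higher and 2 lower (0.303%). Dbp, a clock output factor, rose at both doses (log2 fold change 2.75 and 3.36, adjusted p = 1.878e-05 and 1.308e-06). The nuclear receptor Ppard fell at both (-0.98 and -1.03, adjusted p = 0.008988 and 0.003464). Bmal1, a clock factor, fell at 20 mg/kg b.w. (-1.21, adjusted p = 0.03404 in edgeR). Tef was not called (0.49 and 0.60, adjusted p = 0.7955 and 0.1694 in edgeR, unadjusted p = 0.003965 and 0.0007985). Hnf4a, a known activator of proximal tubule carriers, had an adjusted p of 0.9737 at 10 mg/kg b.w. and 0.9009 at 20 mg/kg b.w. in edgeR. The scaffold Pdzk1, which anchors Slc22a12, was at 436 ± 22.3 CPM in Control, 520 ± 181 CPM in 10CBD and 314 ± 57.8 CPM in 20CBD (SD, n = 4). Its highest values, 766.5 and 544.4 CPM, were those of 10CBD replicates 1 and 3, which are libraries of low mitochondrial share. All mice of 20CBD lay below all Control mice, as for 5.30% of all genes tested. In edgeR the adjusted p was 0.906 at 10 mg/kg b.w. and 0.5398 at 20 mg/kg b.w. (unadjusted p = 0.2276 and 0.03376).

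An E-box, D-box forms and a PPAR direct repeat were searched on both strands in the 250 bases before the start of each gene in GRCm39. The search covered 13762 promoters of tested genes, and no motif of Hnf4a was searched. The E-box CACGTG was in the promoter of 1 member (Abcc5, 2.22%) and in 7.6% of all promoters, and the D-box TTATGTAA was in 0 members and in 0.574% of all promoters. A match is a description of these letters and not of a binding site.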

How the data were processed

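Kidney poly(A) RNA of 12 mice was sequenced with CORALL libraries. Per the labels and the methods of the study, the authors checked reads with FastQC 0.11.9, trimmed them with Flexbar, aligned them by STAR 2.7.5c (GRCm39) and obtained counts from htseq-count (HTSeq 1.99.2). The deposited files hold raw counts per gene, 1 library each. The annotation release, the strand setting and the use of molecular identifiers are not given in the sources used here, so overlapping genes may share reads, and the error of low counts may be larger than counting error. The 5 summary lines of each file were left out. The labels' DESeq2 entry refers to the authors' tests, which were not used.

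From these counts, 17163 genes passed filterByExpr. Libraries were scaled by TMM, and CPM are TMM-scaled. The edgeR 4.0.16 quasi-likelihood test (R 4.3.3) was fitted on all 12 libraries with a mean for each group, and Benjamini-Hochberg adjustment covered all genes tested, with calls at an adjusted p under 0.1, as in the study. P-values measure the spread between mice, since each library was 1 mouse. Alternatives were DESeq2 1.42.0, limma-voom (limma 3.58.1), other scalings and filters, a replicate block, the mitochondrial share as a covariate, and leaving out libraries. Exact permutation tests used means of log2 CPM (prior count 2). Tests were checked on simulated data. Identifiers were matched to GENCODE vM39 (99.0% of identifiers). Sequences came from its genome.

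Members, lists and tests were chosen with earlier results of these data known. Named in full were members called in a contrast, with an unadjusted p under 0.05 at a dose, with all mice of a dose to the same side of all Control mice, or among the 10 highest per kilobase in Control. Values of 1 member, counted in all totals, are not reported here.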

Additional observations from a re-analysis of the deposited data

Results flagged for a closer look

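In 5 of 135 groups of 4 mice, 1 mouse lay far from the other 3 for its group's range, and about 1 in 20 groups would do so by chance. Slco1a1 was at 136.5 CPM in Control replicate 2, where the other Control mice had 177.5–180.4 CPM. Slc22a4 was at 20.75 CPM in the same mouse, where the others had 31.5–33.5 CPM. Abcc10 was at 21.13 CPM in 20CBD replicate 2, where the others had 15.89–16.57 CPM. Slco4a1 was at 14.32 CPM in 10CBD replicate 4, where the others had 3.659–5.081 CPM. Abcc3 was at 2.214 CPM in 10CBD replicate 3, where the others had 3.522–3.761 CPM.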

How the results depend on the processing

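Of 433 values of 19 fold changes (11 members) under the alternatives, 0 changed sign and 21 came past the threshold. The 19 were selected for an unadjusted p under 0.05 in the same libraries, so a change of sign was unlikely from the start. Since none passed the threshold in the reported edgeR fit, no call could be lost. The number of members called (0 in each contrast by edgeR) was 1, 2, 0 and 1 with DESeq2 for 10CBD, 20CBD, 20CBD against 10CBD and the mean of both doses, 3, 1, 1 and 2 without a filter on low counts, 0, 3, 1 and 2 with the mitochondrial share as a covariate, and 1, 1, 0 and 1 without the 4 libraries of low share, a choice made after seeing the data. Over all genes (main counts 5, 52, 0 and 24) the counts were 40, 182, 12 and 136 with DESeq2, 331, 416, 256 and 393 without a filter, 15, 1386, 62 and 276 with the covariate, 26, 107, 0 and 67 without the 4 libraries, and 3, 23, 0 and 13 at an adjusted p under 0.05. The cause of these differences was not tested.

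With 1 library left out, 0 members were called in the contrasts of 10CBD, 20CBD and 20CBD against 10CBD, and 0–1 in that of the mean of both doses; all-gene counts ran over 2–8, 14–54, 0–0 and 8–35. The members' median log2 fold change ran from -0.053 to 0.024 (10CBD; 0.024 without Control replicate 1 and 0.023 without 10CBD replicate 1), -0.072 to -0.020 (20CBD), -0.061 to -0.021 (20CBD against 10CBD) and -0.081 to -0.001 (mean). For 20CBD it was -0.087 without the 4 libraries, beside -0.035. With a replicate block 0 members were called in any contrast, and the all-gene count for 20CBD went from 52 to 27. Same-numbered mice had correlations of deviations between -0.33 and 0.317, and other pairs of mice between -0.427 and 0.445. No pairing by number was seen, but these values cannot exclude one. A fit on only the groups compared gives no value for the mean contrast.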
